A study of Homo sapiens with 24 samples.

Results

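The clustered core histone genes were taken as all genes whose symbol in the probe annotation starts with H2AC, H2BC, H3C or H4C followed by a digit, measured by a probe set annotated to that gene alone. The rule found 52 genes among the 18417 genes tested: 14 of H2A, 17 of H2B, 8 of H3 and 13 of H4. H4C14 and H4C15 carried identical values on all 24 arrays and were counted as 1 measurement, which leaves 51 measurements, 12 of them for H4. A further 14 of the 66 core histone symbols in the annotation were named only on probe sets shared with another gene and are not members. H2BC19P is annotated as a pseudogene. H2AC1 and H2BC1 encode testis-type histones.

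The 24 microarrays came from 2 human inflammatory breast cancer cell lines, SUM149PT and SUM190PT, both labelled as estrogen receptor negative with mutant p53. Each line has 4 groups of 3 arrays from separate experiments, all treated for 48 h: 10 nM estradiol plus CG-1521, CG-1521 alone, 10 nM estradiol alone, and vehicle, which was ethanol with DMSO. CG-1521, an inhibitor of histone deacetylases, was given at 7.5 µM to SUM149PT and at 5 µM to SUM190PT. SUM149PT was kept in medium with serum and SUM190PT in serum-free medium during treatment, so line, dose and medium differ together and cannot be told apart. Values are log2 levels, so a difference of 1 is a 2-fold difference. Levels of different probe sets are not compared, except that endothelial markers and the median gene serve as rough marks of a low level. A change was called when its adjusted p was below 0.05 in limma with Benjamini-Hochberg adjustment over all 18417 genes.

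H2A pairs with H2B, and H3 with H4, to form the octamer of proteins around which DNA is wrapped in the nucleosome. The clustered genes supply these proteins during DNA replication: they are transcribed mainly in S phase under the coactivator NPAT, and most of their messages end in a stem-loop bound by SLBP in place of a poly(A) tail. Replacement histones such as H3.3 and H2A.Z are encoded by single genes elsewhere, whose messages carry poly(A) tails and are made throughout the cell cycle. Several clustered genes, H2BC5, H2BC12 and H2BC21 among them, are known to give longer, polyadenylated transcripts as well.

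Many clustered H2A and H2B genes lie head to head and share the stretch between their starts. The stretches below are shown because H2BC14 had the lowest log2 change of any member in SUM149PT cells given CG-1521, while H2BC21 and H2BC12 were not called there. H2AC4 and H4C2 show an H2A and an H4 gene that fell. Sequences are RefSeq, build GRCh38.p14, written 5′ to 3′ on the strand of the named gene and ending at the base before its start. Capitals mark 3 motifs on either strand: the TATA box TATAAA, the CCAAT box CCAAT and the octamer ATTTGCAT, the element known from H2B promoters. The first runs over chr6:27814778-27815021 (plus strand) and reaches the start of H2AC14, the second over chr1:149886683-149886917 (minus strand) to the start of H2AC20, and the third over chr6:27146859-27147105 (minus strand) to the nearer end of H2AC12. The fourth covers chr6:26033619-26033768 and the fifth chr6:26027284-26027433, 150 bases each on the minus strand.
H2BC14: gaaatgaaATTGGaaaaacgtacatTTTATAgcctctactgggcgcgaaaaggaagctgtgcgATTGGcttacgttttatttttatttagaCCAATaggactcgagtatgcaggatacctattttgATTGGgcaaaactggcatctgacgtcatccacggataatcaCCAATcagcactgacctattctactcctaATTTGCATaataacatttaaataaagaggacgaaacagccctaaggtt
H2BC21: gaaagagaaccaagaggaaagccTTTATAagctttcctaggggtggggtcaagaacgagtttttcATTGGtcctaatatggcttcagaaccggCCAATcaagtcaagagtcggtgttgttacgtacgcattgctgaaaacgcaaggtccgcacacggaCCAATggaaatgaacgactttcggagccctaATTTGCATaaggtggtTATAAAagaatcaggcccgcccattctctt
H2BC12: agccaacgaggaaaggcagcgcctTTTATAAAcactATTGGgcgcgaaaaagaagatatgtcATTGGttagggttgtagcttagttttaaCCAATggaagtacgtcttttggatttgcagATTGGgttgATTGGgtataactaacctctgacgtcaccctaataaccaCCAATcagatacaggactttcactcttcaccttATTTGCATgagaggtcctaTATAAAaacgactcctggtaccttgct
H2AC4: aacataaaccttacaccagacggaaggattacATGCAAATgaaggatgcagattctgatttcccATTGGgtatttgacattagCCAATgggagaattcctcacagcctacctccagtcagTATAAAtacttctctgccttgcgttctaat
H4C2: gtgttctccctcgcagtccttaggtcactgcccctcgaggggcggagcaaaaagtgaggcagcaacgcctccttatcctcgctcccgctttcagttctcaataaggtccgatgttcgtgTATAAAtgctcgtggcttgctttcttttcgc

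The octamer stood once in each of the first 4 stretches and not in that of H4C2. The stretch of H2BC12 holds 6 CCAAT boxes and 3 TATA boxes, a pair of which overlap on opposite strands. That of H2BC14 holds 5 CCAAT boxes and 1 TATA box, and that of H2BC21 holds 3 and 2. The TATA box in the H2BC14 stretch is on the opposite strand, near the end that reaches H2AC14. The stretches of H2BC21 and H2BC12 also hold TATAAA near the start of the named gene. Over the 46 members with a RefSeq promoter (250 bases before the start and 50 after it), the octamer occurred in 13 of 16 H2B and 10 of 13 H2A promoters and in 0 of 6 H3 and 0 of 11 H4 promoters, against 1.80% of the 27305 promoters in the table. CCAAT occurred in 16 of 16 H2B, 13 of 13 H2A, 6 of 6 H3 and 3 of 11 H4 promoters, against 35.7% of all. TATAAA occurred in 12 of 16 H2B, 10 of 13 H2A, 4 of 6 H3 and 5 of 11 H4 promoters, against 11.95% of all. Head-to-head H2A and H2B pairs had starts 214 to 247 bases apart, so a motif between them counts for both genes. The H2A and H2B counts are therefore not separate. Among H2B genes, the motifs stood both in members called lower and in members not called: 8 of 13 with the octamer and 2 of 3 without it were called lower in SUM149PT cells given CG-1521. For TATAAA it was 7 of 12 with it and 3 of 4 without it, and for CCAAT 10 of the 16, which all had it.

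The arrays of SUM149PT correlated within groups at 0.9946 to 0.996, over all genes, and those of SUM190PT at 0.9807 to 0.9957. In SUM190PT the third vehicle array and the third estradiol array stood apart from the other 2 of their group. The third vehicle array was the lowest of its group for 39 of the 51 core histone measurements, with a median of -0.71 against the mean of the other 2, and the third estradiol array for 46 of 51, with a median of -0.84. The 32 measured genes of a DNA replication list had medians of -1.61 in both cases, and all genes together 0.02 and 0.03. Results in SUM190PT are therefore given with all arrays and without these 2. Both are control arrays with low core histone and replication values. Leaving them out makes the falls of most of these genes larger by construction, so it gives no separate support. Breast markers told the lines apart on vehicle arrays. In SUM149PT against SUM190PT, 5 of 5 basal markers were called higher and 6 of 7 luminal markers lower. Over all genes 24.5% were called higher and 22.1% lower in that comparison. With CG-1521 against vehicle, 2 of 5 basal markers were called lower and 1 higher in SUM149PT. Over all genes 19.9% were called lower and 14.4% higher there. The median level of the basal list stood 1.49 to 1.82 below the vehicle mean on all 6 SUM149PT arrays with CG-1521. Over 5 genes, such a median is the level of 1 gene on each array and not a typical change. Luminal markers had 1 of 7 called lower and 1 higher in SUM149PT. In SUM190PT 5 of 7 luminal markers were called lower and 2 of 5 basal markers higher, beside 8.26% and 8.32% of all genes. The part of these marker differences in the histone results was not tested. In bulk RNA, fewer cells expressing a gene and less of its RNA per cell cannot be told apart.

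**Figure D1:**
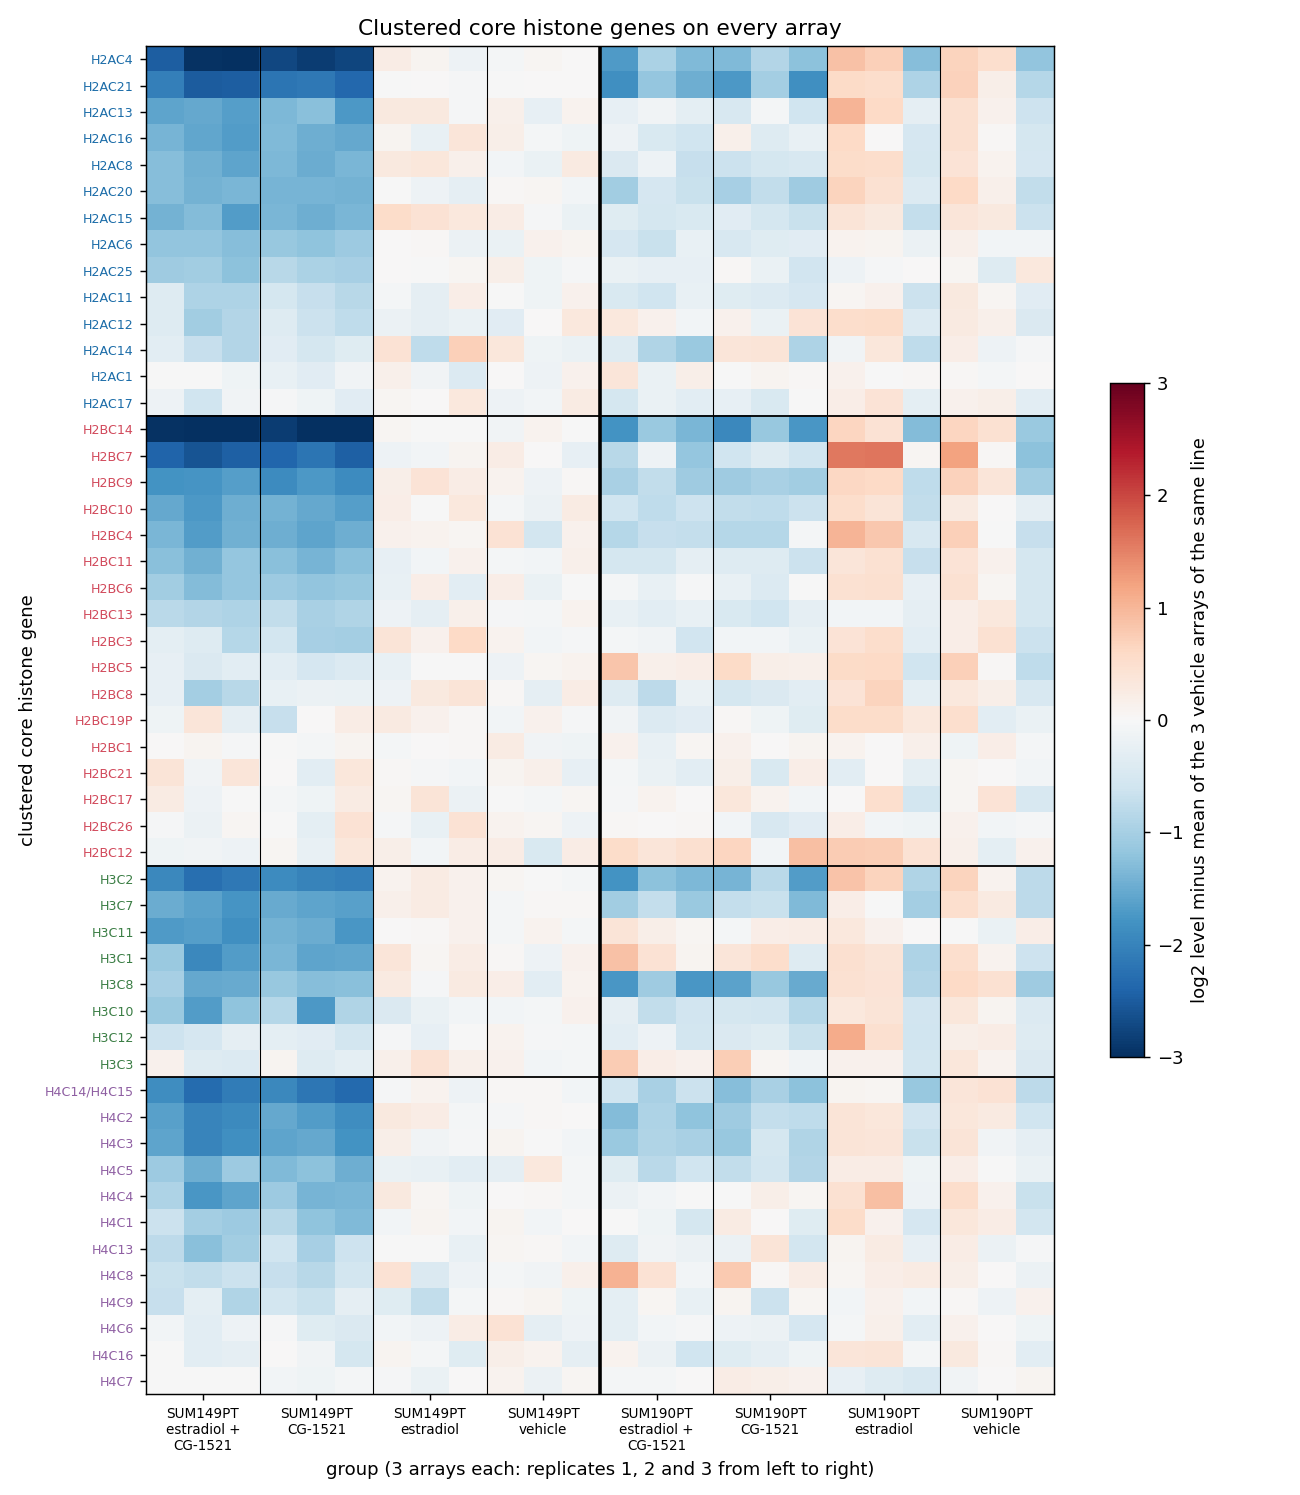
Log2 level of each core histone measurement (rows, coloured by histone class and ordered by the SUM149PT change) on each of the 24 arrays (columns), minus the mean of the 3 vehicle arrays of the same line. All 6 SUM149PT arrays with CG-1521 are blue over most rows, while in SUM190PT the third estradiol and the third vehicle arrays are bluer than the first 2 of their groups.

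In SUM149PT cells, most clustered core histone genes were lower with CG-1521 and none was called higher. Against vehicle, 37 of 51 measurements were called lower, where 19.9% of all genes were, and 0 were called higher, where 14.4% of all genes were. At least a 2-fold fall was called for 27 of the 51, against 3.0% of all genes. The median log2 change of the 51 was -1.13 and that of all genes -0.00. With estradiol in both arms, 40 of 51 were called lower (20.4% of all genes) and 0 higher (16.5%), 26 of them by at least 2-fold (3.08%), with a median of -1.06. The calls of both settings shared 36 measurements, and the share of all genes called in both was not determined. Of the 14 not called against vehicle, 10 had a mean level below that of the median gene. With estradiol in both arms, 9 of the 11 not called did.

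H2B held the largest fall, that of H2BC14, and also genes that were not called. H2BC14 stood at 9.36, 9.07 and 9.18 on the SUM149PT CG-1521 arrays, against 12.10, 12.30 and 12.19 on the vehicle arrays. The 2 groups lie far apart, and the log2 change was -2.997 ± 0.09 (SE, n = 3 arrays each), a 7.98-fold fall (adjusted p = 4.8e-12). With estradiol in both arms it was 9.23, 9.01 and 9.16, against 12.25, 12.19 and 12.19, a change of -3.08. H2BC7, between the members H4C4 and H4C5 on chromosome 6, read 6.17, 6.37 and 6.11 with CG-1521 and 8.78, 8.57 and 8.32 with vehicle, a change of -2.34 ± 0.11 (adjusted p = 4.8e-10). H2BC9 fell by 1.83 and H2BC10 by 1.53 on the log2 scale, each with all CG-1521 arrays below all vehicle arrays. In all, 10 of 17 H2B measurements were called lower and 11 of 17 with estradiol in both arms.

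The members with the smallest changes below were singled out after their values were seen. H2BC12 had 8.34, 8.06 and 8.61 with CG-1521 and 8.51, 7.82 and 8.50 with vehicle in SUM149PT, with overlapping groups and a change of 0.06 ± 0.16 (adjusted p = 0.83). H2BC21 had 7.12, 6.81 and 7.45 with CG-1521 and 7.20, 7.28 and 6.86 with vehicle, a change of 0.01 ± 0.16 (adjusted p = 0.968), and its groups overlapped as well. H2BC5 was called lower, but by only 0.41 ± 0.09, at 7.32, 7.14 and 7.23 with CG-1521 and 7.48, 7.69 and 7.74 with vehicle. This call was lost when all 24 arrays were fitted together (adjusted p = 0.358). H2BC12, H2BC21 and H2BC5 are annotated by RefSeq as genes of 8566, 2224 and 13229 bases. Chosen after the values were seen and leaving out H4C14 and H4C15, whose shared values belong to a short and a long gene, the 4 members annotated at 1000 bases or longer (these 3 and H2BC4) had a median change of -0.20. The 46 shorter ones, of 386 to 569 bases, had a median of -1.14. H2BC4, at 10757 bases, fell by 1.51, so a long annotation did not go with a small change in every case. A probe set shared by H2BC5, H2BC12, H2BC12L and H2BC17 fell by 1.67 in SUM149PT, where the single-gene probe sets of H2BC5, H2BC12 and H2BC17 changed by -0.41, 0.06 and 0.02, and one shared by H2BC19P, H2BC20P and H2BC21 fell by 1.01. Near-identical copies cannot be separated on such probe sets, and the small changes of H2BC12 and H2BC21 hold for their own probe sets.

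**Figure D2:**
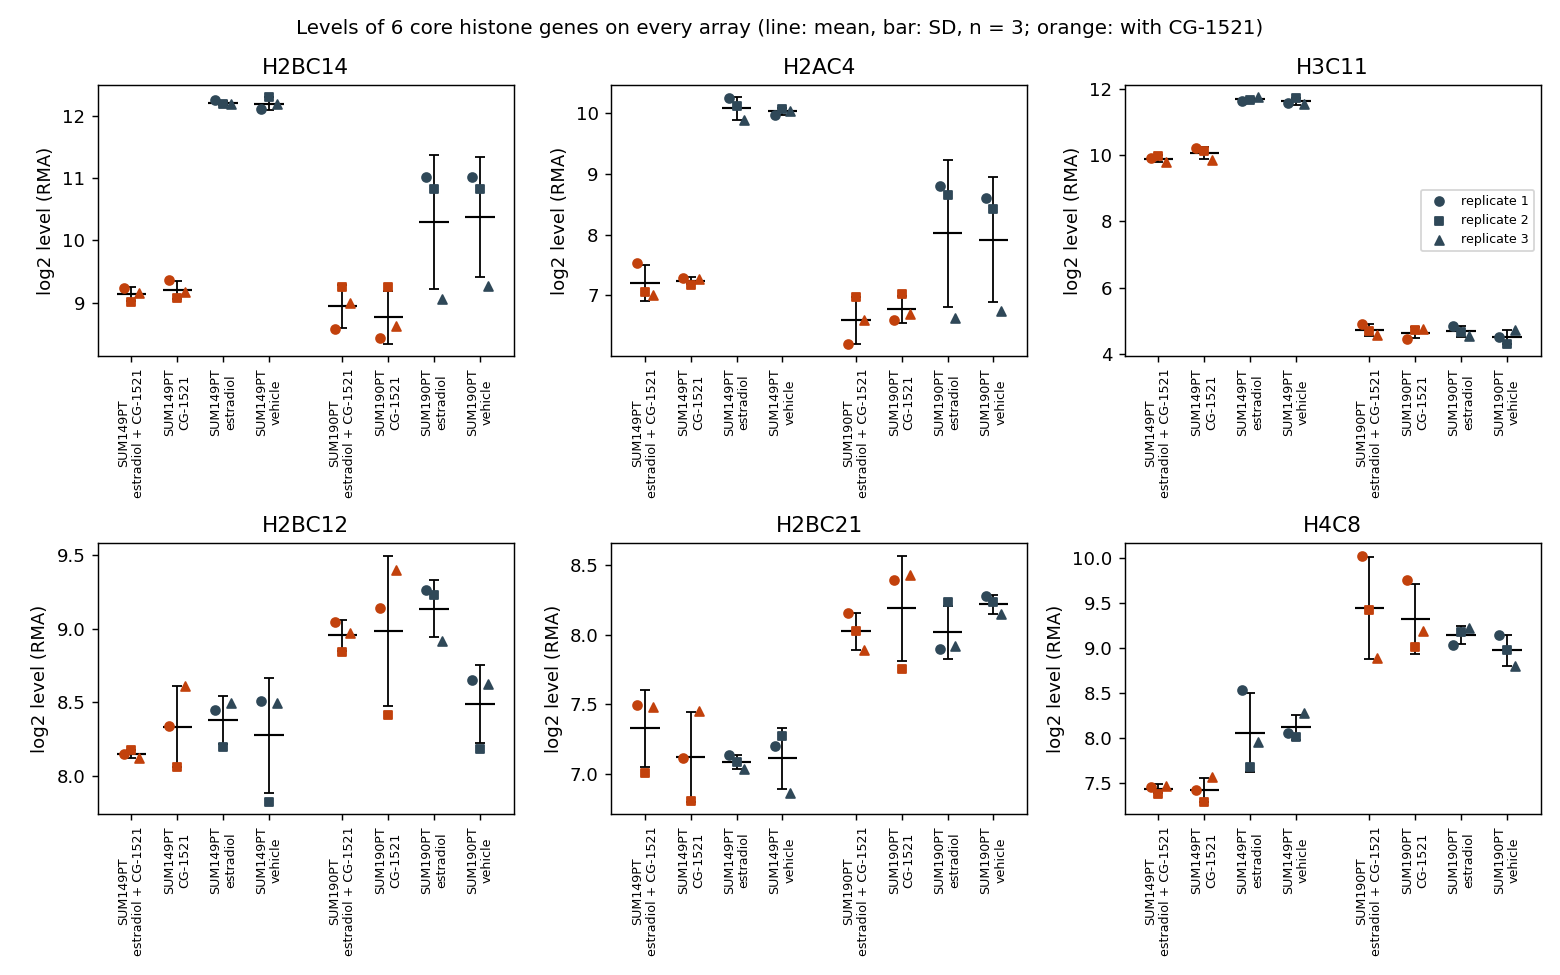
Log2 level of 6 core histone genes on every array, by line and treatment (points: replicates 1, 2 and 3, lines: means, bars: SD with n = 3, orange: groups given CG-1521). H2BC14 and H2AC4 fell in SUM149PT, H3C11 lay between 4.32 and 4.91 on all SUM190PT arrays, and H2BC12 and H2BC21 showed overlapping groups in SUM149PT.

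H2A, the dimer partner of H2B, had 11 of 14 measurements called lower in SUM149PT against vehicle and 13 of 14 with estradiol in both arms. H2AC4 read 7.28, 7.18 and 7.27 with CG-1521, against 9.96, 10.07 and 10.03 with vehicle, and the change was -2.78 ± 0.12 (SE, n = 3 each, adjusted p = 2.0e-10). H2AC21 read 8.55, 8.60 and 8.38 with CG-1521, against 10.72, 10.76 and 10.75 with vehicle, a change of -2.24 ± 0.11 (adjusted p = 3.8e-10). Neither gene overlapped between groups. H2AC13 and H2AC16 each fell by 1.44, and with estradiol in both arms H2AC15 fell by 1.90. H2AC1, the testis-type gene, stayed between 3.46 and 4.02 over the 12 SUM149PT arrays and was not called. Endothelial markers had medians of 4.39 to 4.66 there, so a fall of H2AC1 could hardly be seen.

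H3 and H4 form the tetramer at the core of the nucleosome. Of the 8 H3 measurements, 7 were called lower in SUM149PT against vehicle and 8 with estradiol in both arms. H3C2 read 9.04, 8.93 and 8.87 with CG-1521, against 10.99, 10.92 and 10.87 with vehicle, a change of -1.98 ± 0.09 (adjusted p = 2.5e-10). H3C7 fell by 1.58, H3C11 by 1.55 and H3C1 by 1.50, and in none of the 3 did the groups overlap. H3C3 was the member not called against vehicle, at 7.09, 6.61 and 6.71 with CG-1521 and 7.13, 6.92 and 6.94 with vehicle. A probe set shared by H3C11 and H3C6 was called higher, by 0.46, although the probe set of H3C11 alone fell.

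Of the 12 H4 measurements, 9 were called lower against vehicle and 8 with estradiol in both arms. The probe set values listed for both H4C14 and H4C15 read 7.76, 7.52 and 7.36 with CG-1521, against 9.73, 9.74 and 9.62 with vehicle, a change of -2.15 ± 0.12 (adjusted p = 1.7e-09). A second probe set shared by the same 2 genes changed by -0.24 (adjusted p = 0.284), so their change rests on 1 of 2 probe sets. H4C2 fell by 1.698, H4C3 by 1.64 and H4C5 by 1.35. H4C4 fell by 1.29, and by 1.50 with estradiol in both arms. H4C8 fell by 0.69 ± 0.16, at 7.42, 7.29 and 7.56 with CG-1521 and 8.06, 8.01 and 8.27 with vehicle. H4C6, H4C7 and H4C16, the last alone on chromosome 12, were not called in either setting. H4C6 and H4C7 had means of 4.11 and 3.76 over the 24 arrays. Endothelial markers had medians of 4.39 to 4.66 in SUM149PT, so a fall of these 2 genes could hardly be seen.

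Head-to-head neighbours were not always called alike. Among the 46 members whose strand the promoter table gives, 9 pairs of an H2A and an H2B gene had starts under 400 bases apart. In 3 of these pairs both genes were called lower in SUM149PT against vehicle, in 4 pairs one of them, and in 2 pairs neither. H2AC12, which has no entry there, lies 247 bases from the start of H2BC12. It was called lower, by 0.60, and H2BC12 was not. H2BC14 fell by 2.997 while H2AC14, whose start lies 244 bases away, changed by -0.41, at 4.24, 4.05 and 4.22 with CG-1521 and 4.93, 4.45 and 4.38 with vehicle. H2AC14 was called lower, by 0.76, only with estradiol in both arms. Endothelial markers had medians of 4.39 to 4.66 on the SUM149PT arrays. H2AC14 is therefore not clearly above background, and a large fall could not be seen. H2AC1 and H2BC1, a pair with neither called, had means of 3.74 and 3.34 over the 24 arrays, below these medians. H2AC20 fell by 1.40, at 9.05, 9.04 and 9.02 with CG-1521 and 10.47, 10.50 and 10.35 with vehicle, while H2BC21 across 235 bases moved by 0.01. H2AC8 fell by 1.40 and H2BC8 across 232 bases changed by -0.21, and H2AC25 fell by 0.92 while H2BC26 changed by 0.04. In the 3 pairs that were both called, H2BC4 fell by 1.51 and H2AC6 by 1.14, H2BC11 by 1.30 and H2AC11 by 0.68, and H2BC13 by 0.88 and H2AC13 by 1.44. The difference within a pair compares probe sets and was not tested.

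**Figure D3:**
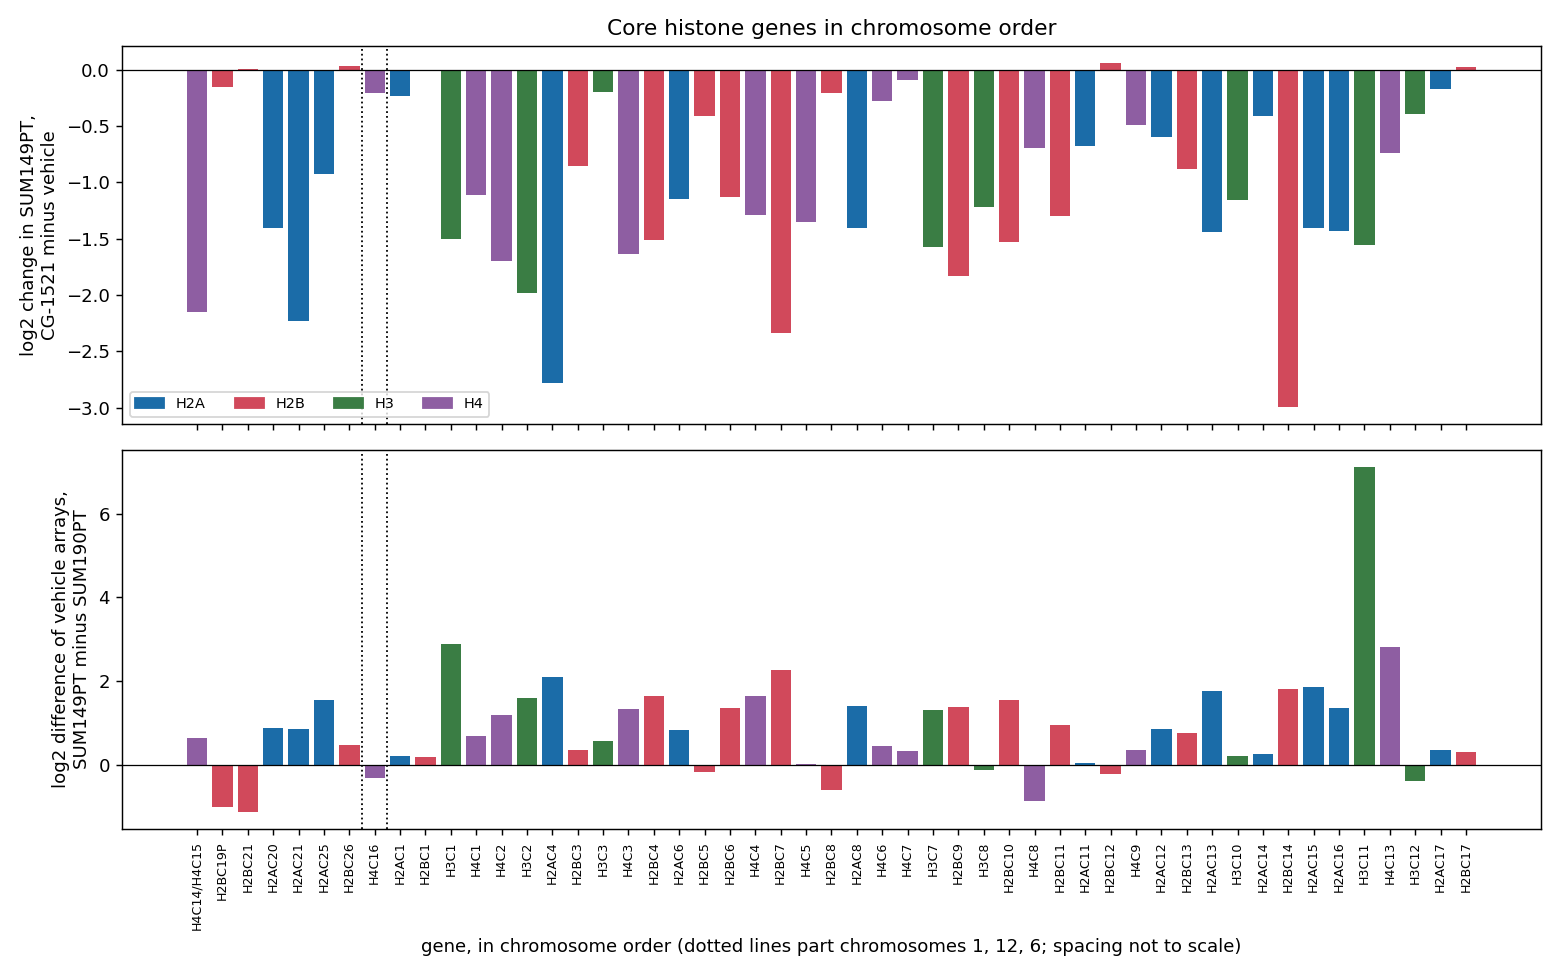
Core histone genes along the chromosomes (horizontal axis: gene order, bars coloured by class). The upper bars give the log2 change in SUM149PT, CG-1521 minus vehicle, from -2.997 for H2BC14 to 0.06 for H2BC12, and the lower bars the log2 difference of the vehicle arrays, SUM149PT minus SUM190PT, where H3C11 reaches 7.10 and its neighbour H4C13 reaches 2.81.

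In SUM190PT cells fewer core histone genes passed the test, and the counts turned on the arrays that stood apart. Against vehicle, 6 of 51 were called lower with CG-1521 (8.26% of all genes) and 0 higher (8.32%), 4 of them by at least 2-fold (1.88%), with a median of -0.31. Over all genes 50.2% of the calls were higher, and 66.4% with each array centred on its median. Without the third arrays of vehicle and estradiol, 25 were called lower (9.4% of all genes), with a median of -0.44. The arrays left out are controls that were low for most members, so a larger fall without them was built in. Leaving out the third vehicle array alone gave 15 calls, while leaving out the first or second vehicle array, or the first or the third CG-1521 array, left 1 call. With estradiol in both arms, 11 were called lower (13.2% of all genes), 7 of them by at least 2-fold (3.56%), and 1 higher (12.5%), with a median of -0.45. Without these arrays, 31 were called lower (14.6%) and 0 higher, with a median of -0.71. Leaving out the third estradiol array alone gave 27 calls. Leaving out the first or second estradiol array gave 4 and 3 calls, and leaving out the first or the third array of the combination gave 3 and 6.

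Several of the genes that fell most in SUM149PT also fell in SUM190PT with CG-1521. H2BC14 read 8.44, 9.25 and 8.62 with CG-1521, against 11.03, 10.83 and 9.27 with vehicle. The third vehicle array lay just above the CG-1521 arrays, and the change was -1.61 ± 0.51 (SE, n = 3 each, adjusted p = 0.0462). Without the third arrays it was -2.16 (adjusted p = 0.00017). H2AC21 read 8.16, 8.86 and 8.05 with CG-1521, against 10.57, 10.06 and 9.02 with vehicle, a change of -1.53 ± 0.42 (adjusted p = 0.0274). H3C8 changed by -1.42, H4C14/H4C15 by -1.16, H4C3 by -0.86 and H4C5 by -0.71, which completes the 6 called. All 6 were called lower in SUM149PT too, and without the third arrays 24 were called in both lines. Each of these calls but that of H4C5 was lost when the first or second vehicle array, or the first or the third CG-1521 array, was left out. The calls of H2BC14 and H4C3 were also lost when each array was centred on its median.

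The call of H2AC4 depended on the third arrays. It read 6.59, 7.03 and 6.69 with CG-1521 in SUM190PT, against 8.60, 8.41 and 6.74 with vehicle, so that the third vehicle array fell inside the CG-1521 range. Its change was -1.15 ± 0.54 with all arrays (adjusted p = 0.166) and -1.73 without the third arrays (adjusted p = 0.00023). With estradiol in both arms, H2BC7 fell by 1.79, H3C2 by 1.67, H2AC21 by 1.55, H3C8 by 1.52, H4C3 by 1.02, H2AC20 by 0.98, H2BC19P by 0.76, H4C5 by 0.71 and H2AC6 by 0.47. The changes of H2BC4 and H4C2 were -1.198 and -1.198, both called lower. Of these 11, H4C2, H4C5 and H2BC19P stayed called in every alternative run, and the others lost the call without the first and also without the second estradiol array. The call of H2BC19P came near the threshold, with an adjusted p of up to 0.0488. With the combination H2BC19P lay at 4.45 to 4.77, about the level of endothelial markers in SUM190PT (medians of 4.25 to 4.68). H4C7 was the 1 member called higher, by 0.33, at 3.58, 3.58 and 3.65 with the combination and 3.41, 3.25 and 3.17 with estradiol. That call was lost in 8 of 14 alternatives, the one without the third arrays among them. These H4C7 values all lie below the medians of the endothelial markers, so H4C7 is not shown to be above background.

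A few members stood higher or nearly level with CG-1521 in SUM190PT. H2BC12 read 9.14, 8.41 and 9.40 with CG-1521 and 8.65, 8.19 and 8.63 with vehicle, a change of 0.50 ± 0.22 (adjusted p = 0.136). H4C8 read 9.76, 9.01 and 9.18 with CG-1521 and 9.14, 8.98 and 8.80 with vehicle, a change of 0.34 ± 0.25 (adjusted p = 0.372). H2BC5 changed by 0.31 ± 0.37 and H3C1 by 0.17 ± 0.38. H2BC21 changed by -0.03 ± 0.17. None of these 5 passed the test, and the arrays of the 2 groups overlapped in each. Without the second CG-1521 array, H2BC12 changed by 0.78 and was called higher (adjusted p = 0.0085). H2BC5 ran from -0.07 to 0.67 over the alternatives, with no call. With estradiol in both arms, H2BC12 stood lower. It read 9.05, 8.84 and 8.97 with the combination and 9.26, 9.23 and 8.91 with estradiol. Its change there ran from -0.29 to -0.03 over the alternatives, with no call. H4C8 and H3C1 stayed higher there in every alternative, with 1 call of H3C1.

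**Figure D4:**
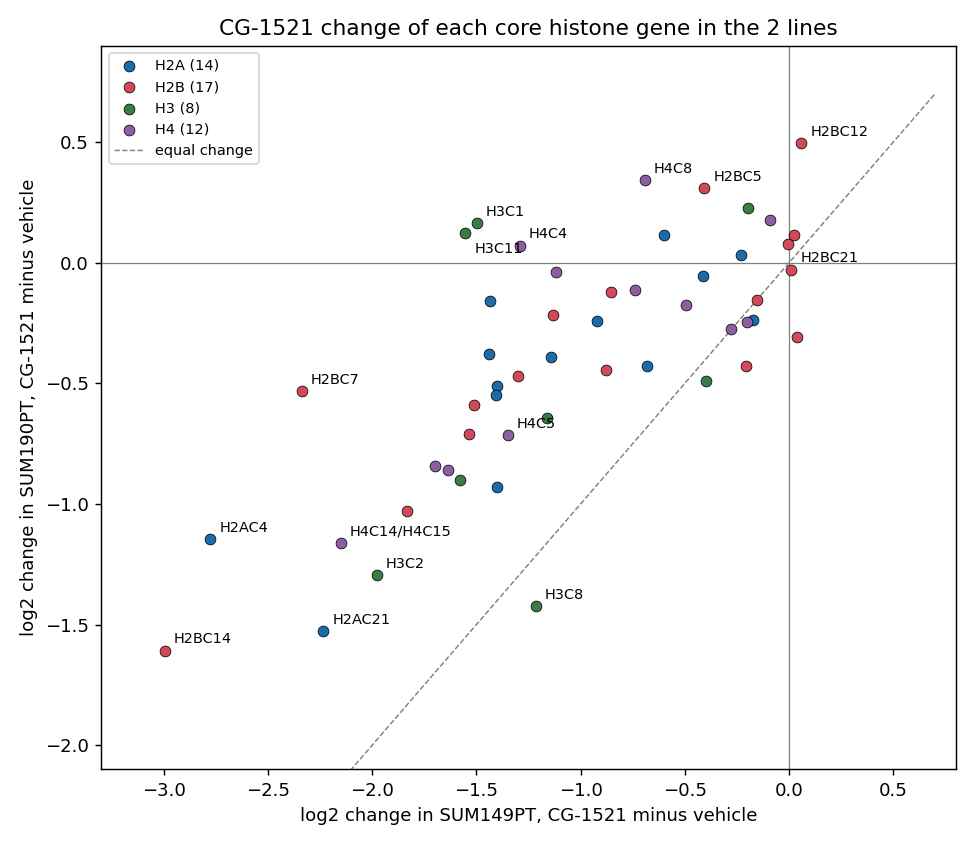
Log2 change with CG-1521 against vehicle of each of the 51 core histone measurements in SUM149PT (horizontal axis) and SUM190PT (vertical axis, all arrays), coloured by class. The dashed line marks equal change. Most points lie above it, H3C8 lies below it, and H3C1, H3C11 and H4C4 fell in SUM149PT with changes of 0.17, 0.12 and 0.07 in SUM190PT.

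The test of the difference between the lines, the CG-1521 change in SUM149PT minus that in SUM190PT, called 12 of 51 measurements lower (11.6% of all genes) and 0 higher (9.01%). Without the third arrays 19 were called lower (11.2% of all genes). By size among those called, the first 4 were H2BC7 at -1.81 ± 0.58 (adjusted p = 0.0286), H3C11 at -1.68 ± 0.17 (adjusted p = 5.7e-07), H3C1 at -1.66 ± 0.45 (adjusted p = 0.0104) and H4C4 at -1.36 ± 0.35 (adjusted p = 0.00723). H2AC4 at -1.63 (adjusted p = 0.0551) and H2BC14 at -1.39 (adjusted p = 0.0778) were not called. H3C11 stood at 4.32 to 4.91 on all SUM190PT arrays, about the level of the endothelial markers there (medians of 4.25 to 4.68), so a fall in SUM190PT could not be seen and its difference carries no information on the response of that line. For H3C1, the CG-1521 arrays read 6.88, 7.04 and 6.14 and the vehicle arrays 7.03, 6.63 and 5.90 in SUM190PT, with overlap, while in SUM149PT they read 8.02, 7.82 and 7.85, against 9.42, 9.25 and 9.52. The count rested on single SUM190PT arrays: it was 25 without the first vehicle array and 6 without the third. It was 22 with each array centred on its median, where 30.0% of the calls over all genes were higher, against 43.7% as deposited. The call of H2BC7 was lost in 6 of 20 alternatives, with a difference of -1.19 without the third vehicle array, where the adjusted p was 0.0884.

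On vehicle arrays, the clustered core histone genes stood higher in SUM149PT than in SUM190PT. Of the 51, 30 were called higher (24.5% of all genes) and 4 lower (22.1%), with a median log2 difference of 0.78 and -0.02 over all genes. Without the third arrays 27 were called higher (23.7%) and 8 lower (21.1%), with a median of 0.46. The value of H3C11 differed most: it read 11.58, 11.74 and 11.56 in SUM149PT and 4.52, 4.32 and 4.73 in SUM190PT, a difference of 7.10 ± 0.12 (adjusted p = 1.3e-21). Its 12 SUM190PT arrays all lay between 4.32 and 4.91, whatever the treatment. Endothelial markers, which these cells should lack, had medians of 4.25 to 4.68 on the same arrays, so H3C11 is not shown to be above background in SUM190PT and the size of its difference is not an exact fold. H4C13, the next member along chromosome 6, read 7.68, 7.65 and 7.52 in SUM149PT and 5.03, 4.62 and 4.77 in SUM190PT, a difference of 2.81 ± 0.18. Its SUM190PT values lay at or little above the endothelial medians, so this size is not an exact fold either. The probe set shared by H3C11 and H3C6 did not follow, at -0.08 (adjusted p = 0.744). H3C12, beyond H4C13, differed by -0.37, and H2AC16, on the other side of H3C11, by 1.36. Among the others, H3C1 differed by 2.88 ± 0.32 and H2BC7 by 2.27 ± 0.41.

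Members called lower in SUM149PT than in SUM190PT were H2BC21, H2BC19P, H4C8 and H2BC8. H2BC21 read 7.20, 7.28 and 6.86 in SUM149PT, against 8.28, 8.23 and 8.14 in SUM190PT, a difference of -1.10 ± 0.17 (adjusted p = 1.1e-05). H4C8 read 8.06, 8.01 and 8.27 in SUM149PT, against 9.14, 8.98 and 8.80 in SUM190PT, a difference of -0.86 ± 0.22 (adjusted p = 0.00255). In neither did the lines overlap. H2BC19P differed by -1.004. It read 3.79, 3.99 and 3.82 in SUM149PT, below the endothelial medians there (4.39 to 4.66). It is therefore not shown to be above background in SUM149PT, and the size of its difference is not an exact fold. H2BC8 differed by -0.58, with overlapping arrays.

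Estradiol moved no core histone gene past the test. Against vehicle, 0 of 51 were called in SUM149PT (0.0% of all genes) and 0 in SUM190PT (0.00543%, which is 1 gene). At an unadjusted p below 0.05, limma gave 5 of 51 members in SUM149PT and 3 in SUM190PT, beside 845 and 4531 of all 18417 genes. The changes ran from -0.39 for H4C9 to 0.43 for H2AC15 in SUM149PT, where the median SE was 0.13, and from -0.37 for H4C7 to 1.08 for H2BC7 in SUM190PT, where it was 0.26. H2BC7 read 7.87, 7.89 and 6.34 with estradiol, against 7.49, 6.31 and 5.06 with vehicle, in SUM190PT, and had the smallest adjusted p of the members there, 0.0689. Without the first SUM190PT vehicle array, 3 members were called. In cells given CG-1521, adding estradiol gave 0 calls in both lines (0.0% of all genes in each). At an unadjusted p below 0.05, limma gave 3 members in each line, beside 1156 of 18417 genes in SUM149PT and 889 in SUM190PT. The changes ran from -0.50 to 0.35 in SUM149PT and from -0.75 to 0.42 in SUM190PT. The interaction of estradiol with CG-1521 gave 0 members in SUM149PT (0.0% of all genes) and 0 in SUM190PT (0.516%). Its members at an unadjusted p below 0.05 were 3 and 2, beside 1046 and 4159 of 18417 genes.

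Genes around histone supply were looked up from lists chosen with earlier results of these data known. Against vehicle, 19.9% of all genes were called lower and 14.4% higher in SUM149PT, and 8.26% lower and 8.32% higher in SUM190PT, or 9.4% lower without the third arrays. The list counts below are to be read against these shares. DNA replication genes, active in the same phase as the clustered histones, fell in SUM149PT with CG-1521 against vehicle in 32 of 32 measured cases (0 rose), with a median of -1.31. TYMS, which makes thymidylate, fell by 2.02, POLE2, a polymerase subunit, by 1.95 and PCNA, the sliding clamp, by 1.33. In SUM190PT 3 of 32 were called lower with all arrays, with a median of -0.93, and 31 of 32 without the third arrays, with a median of -1.40. The replication genes had lower medians with CG-1521 and on the SUM190PT arrays that stood apart, as did the core histones, and the part of this in the histone results was not tested. CDKN1A, an inhibitor of cyclin-dependent kinases, rose by 1.45 ± 0.11 in SUM149PT and by 1.40 ± 0.17 in SUM190PT.

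**Figure D5:**
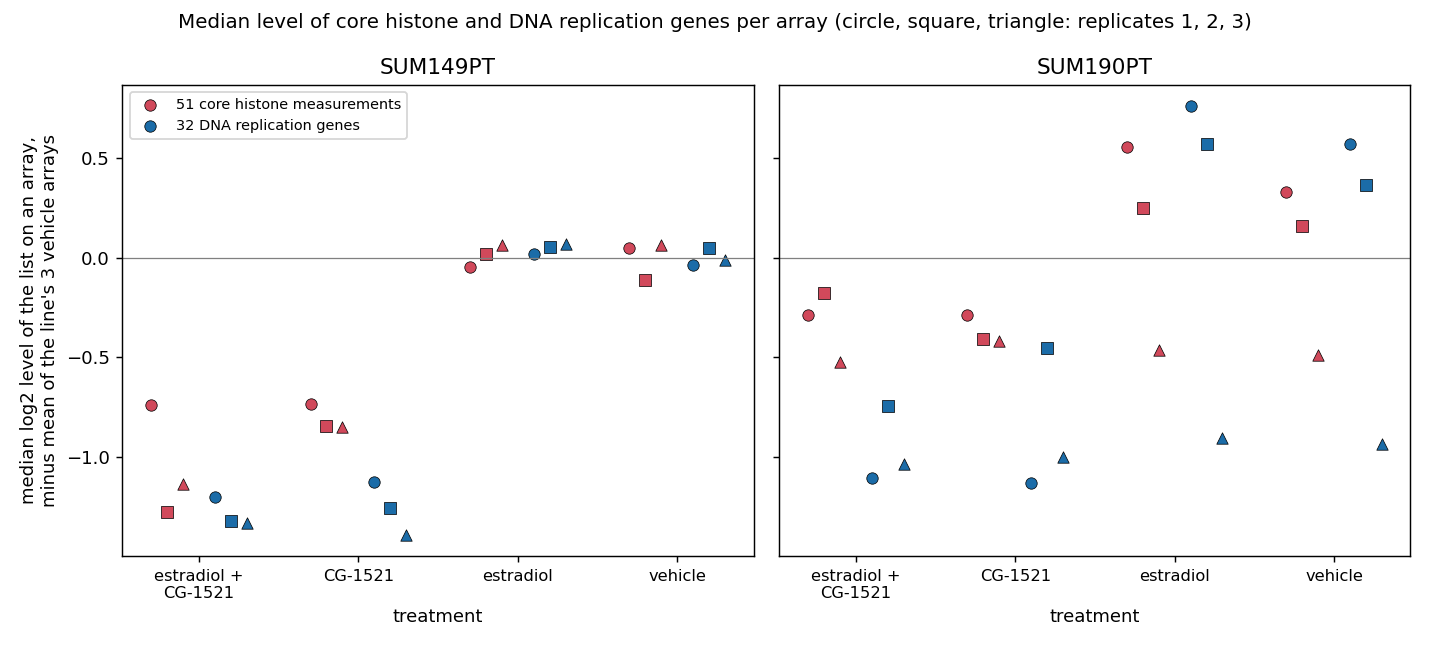
Median log2 level of the 51 core histone measurements (red) and of 32 DNA replication genes (blue) on each array, minus the mean of the 3 vehicle arrays of the line, by treatment (symbols: replicates 1, 2 and 3). In SUM149PT the histone medians of the CG-1521 arrays lie from -0.74 to -0.85 and those of the combination from -0.74 to -1.28, while the third SUM190PT estradiol and vehicle arrays lie at -0.46 and -0.49, beside the CG-1521 groups.

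Factors of histone message synthesis and 3′ processing were called lower in SUM149PT in 13 of 20 measured cases and higher in 0, with a median of -0.50. NPAT fell by 0.55, SLBP by 0.61 and CASP8AP2, also known as FLASH and needed for 3′ cleavage, by 0.59. HINFP, an activator of H4 genes, changed by 0.17 (adjusted p = 0.25). In SUM190PT 0 of 20 were called lower and 1 higher, HINFP at 0.44, and without the third arrays 4 were called lower and 1 higher. SLBP changed there by 0.32 ± 0.20 with all arrays. Histone chaperones, which carry new histones to DNA, were called lower in 20 of 24 cases and higher in 3 in SUM149PT, with a median of -0.72. ASF1B fell by 1.62, CHAF1B by 1.33 and NASP by 1.26, while ASF1A, the other ASF1 gene, rose by 0.80. In SUM190PT 3 of 24 were called lower and 1 higher with all arrays, and 11 and 0 without the third arrays.

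Core histones outside the clusters, replacement histones among them, were called lower in 6 of 8 measured cases in SUM149PT and higher in 0, with a median of -0.49. H2AZ2 fell by 1.29, H2AZ1 by 1.09 and H2AX by 1.01, while H3-3B, which encodes H3.3, fell by 0.51. In SUM190PT 2 of 8 were called lower and 2 higher: H2AZ2 fell by 1.02, and H3-3B rose by 0.46. Without the third arrays 4 were called lower and 1 higher. Linker histones, which bind the DNA between nucleosomes, were called lower in 5 of 7 cases in SUM149PT and higher in 0, with H1-5 at -3.11 and H1-1 at -2.93, and in SUM190PT 2 of 7 were called lower and 1 higher. Of the markers of other cell types, 1 of 6 fibroblast, 1 of 6 leukocyte and 0 of 5 endothelial genes were called lower in SUM149PT, and none higher.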

How the data were processed

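RNA of 24 cultures was measured on 1-colour expression arrays, 3 arrays in each of 8 groups. The authors deposited log2 values, made with Affymetrix Expression Console and RMA per the submitters' processing notes, with versions not given in the sources used here. The labels' protocols name a NuGEN pico amplification, and its effect on messages without a poly(A) tail was not tested. No further normalization was applied. Of 33297 probe sets, 19460 had a single gene symbol and 1754 several. For each gene the single-symbol probe set with the highest mean over the 24 arrays was kept, which gave 18417 genes. All 52 members matched RefSeq by gene ID.

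Changes were fitted with limma 3.58.1 (lmFit and eBayes, R 4.3.3) on the 12 arrays of a line, or on all 24 for comparisons between lines, with Benjamini-Hochberg adjustment over all genes and calls at an adjusted p below 0.05. The fit was tested on simulated data. Tables and figures used Python 3.11.15, pandas 2.3.3, numpy 2.4.6 and matplotlib 3.10.9. The number of arrays limits the precision. Members, lists and tests were chosen with earlier results of these data known. The members named were, for each CG-1521 comparison and histone class, up to 4 of the largest falls and rises among those called with non-overlapping arrays, and up to 4 each way between lines. Others named were chosen after their values were seen.

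Groups share replicate numbers. Deviations of same-numbered arrays correlated above 0.1 in all 3 pairs only for SUM190PT estradiol and vehicle (0.44, 0.23 and 0.73) and for SUM190PT combination and CG-1521 (0.52, 0.43 and 0.50). For these comparisons the numbers were taken to pair the arrays, and a fit with a replicate block called 0 members in either. The SE and adjusted p values given above for them come from the fit without that block. Alternatives were median centring, quantile normalization, leaving out dim genes, other sets of arrays in the fit, a replicate block, and leaving out arrays.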

Additional observations from a re-analysis of the deposited data

Results flagged for a closer look

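The difference between the lines in the CG-1521 change, tested directly, was past the threshold for 12 of the 51 core histone measurements, all with the lower change in SUM149PT. H2BC7 had a difference of -1.81, H3C11 of -1.68, H3C1 of -1.66 and H4C4 of -1.36 on the log2 scale. H3C11 lay between 4.32 and 4.91 on all SUM190PT arrays, about the level of endothelial markers there (medians of 4.25 to 4.68), so a fall in that line could not be seen and this difference does not compare responses. Dose and medium differed along with the line and cannot be told apart from it.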

How the results depend on the processing

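In SUM149PT the counts of core histone genes called were within 1.5 times of the reported ones under every alternative run. In SUM190PT the count against vehicle, 6 as reported, was 13 with a replicate block, 10 without genes below the median level, 15 with all 24 arrays in 1 fit, 25 without the third arrays of vehicle and estradiol, and 1 to 15 with single arrays left out. With estradiol in both arms, 12 as reported (11 lower, 1 higher), it was 24 with a replicate block, 22 with all 24 arrays in 1 fit, 31 without the third arrays, and 3 to 27 with single arrays left out. For estradiol against vehicle it was 2 with all 24 arrays in 1 fit and 0 to 3 with single arrays left out, and for the interaction 0 to 1. The median difference between lines was 0.46 without the third arrays. The difference in CG-1521 change gave 22 calls with arrays centred on their median, 19 without the third arrays, and 6 to 25 with single arrays left out. The causes were not tested. No named value changed sign under an alternative while called.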
